A study of Mus musculus with 8 samples.

Results

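The unfolded protein response is the set of genes that a cell changes when unfolded protein collects in the endoplasmic reticulum (ER). The group described here holds 10 listed genes of that response and of the integrated stress response, out of 12393 genes measured. They were Atf4, Ddit3, Trib3, Asns, Xbp1, Herpud1, Hspa5, Dnajb9, Sdf2l1 and Creld2. All 10 were found by symbol in the platform annotation, through 19 probe sets. The list was given by name, with no measured value in its rule, and was chosen with earlier results of these data known.

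RNA of mouse intestinal epithelial cells was measured on 8 Affymetrix arrays, 2 for each of 4 genotypes. The genotypes were wild type (WT), IkkαAA/AA (IKKa-AA below), β-catc.a. (bCATca below) and β-catc.a./IkkαAA/AA (the double mutants). β-catc.a. is an inducible stabilised β-catenin, restricted to intestinal epithelial cells per the study's design text, and IkkαAA/AA mice are homozygous for an altered allele of the kinase IKKα. Mice of every group, WT included, had tamoxifen by gavage on 5 days, were of mixed C57BL/6 x 129Sv x FVB background, and gave cells 15 days after the first dose. The Cre driver, the segment of intestine, and the age and sex of the mice are not given in the sources used here. The labels do not state that replicates were separate mice, and p-values here reflect only how far these arrays differ, which may be technical variation. The study's design text names the comparison of the 4 genotypes as a search for how IKKα acts on crypt proliferation when β-catenin is stabilised.

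The values are log2 of the deposited intensities. Array medians over probe sets lay between 5.67 and 5.75 and lower quartiles between 3.60 and 3.73 on that scale, and arrays give no read depth. Markers of intestinal epithelium summed to between 34363 and 39007 in linear intensity on the 8 arrays (10 of 10 listed markers measured). Their summed signal was thus alike on each, which does not measure the share of these cells. Markers of other cells varied far more. The 11 measured T cell markers of 12 summed to 11752 and 8629 in WT, 7234 and 5487 in bCATca, and 1256 and 919 in the double mutants, replicate 1 first. The 9 measured plasma and B cell markers of 12 summed to 1827 and 2237, then 4540 and 3521, then 551 and 557. The 9 measured pancreatic acinar markers of 11 summed to 1608 in double mutant replicate 1 and to 497 in replicate 2. The deposited table holds no value of 0, its lowest being 3.01, so no marker was listed at 0.

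The ER has 3 main stress sensors. IRE1, encoded by Ern1, splices the mRNA of the transcription factor XBP1. PERK slows translation while the mRNA of ATF4 is translated more, and ATF4 acts on genes of amino acid supply, on Ddit3 (CHOP) and on Trib3. ATF6 is released by cleavage and acts, with XBP1, on chaperone genes such as Hspa5 (BiP). Other kinases feed into ATF4 without ER stress, and the joint ATF4 branch is called the integrated stress response. In the intestine the response is known best in Paneth and goblet cells, which secrete much protein. Much of it acts on splicing, cleavage and translation, which these probe sets do not measure.

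The start regions of the genes carry short elements named for this response. The 5 stretches shown are those of listed genes that held a searched element. All come from RefSeq windows of build GRCm38.p6, each 250 bases before a gene's start and 50 after, and all 10 genes had a window. They are written 5′ to 3′ on the strand of the gene, with the element in capitals.

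Herpud1: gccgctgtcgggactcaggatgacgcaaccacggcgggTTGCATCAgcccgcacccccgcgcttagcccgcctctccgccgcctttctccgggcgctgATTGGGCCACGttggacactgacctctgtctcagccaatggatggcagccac

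Trib3: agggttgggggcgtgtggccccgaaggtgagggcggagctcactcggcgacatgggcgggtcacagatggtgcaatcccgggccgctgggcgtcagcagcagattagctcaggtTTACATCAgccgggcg

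Asns: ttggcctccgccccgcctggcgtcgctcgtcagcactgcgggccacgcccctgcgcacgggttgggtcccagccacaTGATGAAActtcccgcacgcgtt

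Hspa5: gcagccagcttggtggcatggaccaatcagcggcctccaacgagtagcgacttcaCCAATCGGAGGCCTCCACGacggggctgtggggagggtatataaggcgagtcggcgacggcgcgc

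Creld2: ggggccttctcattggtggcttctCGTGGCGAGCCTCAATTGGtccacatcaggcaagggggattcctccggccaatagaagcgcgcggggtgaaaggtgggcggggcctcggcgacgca

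The stretches lie at chr8:94386279-94386428 on the plus strand for Herpud1, chr2:152344031-152344160 on the minus strand for Trib3, and chr6:7693210-7693309 on the minus strand for Asns. That of Hspa5 lies at chr2:34771970-34772089 on the plus strand and that of Creld2 at chr15:88819496-88819615 on the plus strand. The capitals of Hspa5 and Creld2 mark the ER stress response element (ERSE), the letters CCAAT and CCACG with 9 bases between them, read forward in Hspa5 and in reverse in Creld2. It began 65 bases before the start in Hspa5 and 126 before it in Creld2, and 0.119% of all 32851 windows held it. In Herpud1 the capitals nearer the start mark ERSE-II, ATTGG and CCACG with 1 base between, found 52 to 42 bases before the start. That element stood in 0.0365% of all windows. The other capitals of Herpud1 and those of Trib3 and Asns mark TGATGNAA, the front part of the element that ATF4 is known to bind with a C/EBP partner. It was read in reverse in Herpud1 (112 to 105 bases before the start) and in Trib3 (15 to 22 bases after it), and forward in Asns (23 to 16 bases before it). The longer string TGATGNAAT stood in 0 of the 10 windows and in 0.965% of all, and TGATGNAA, searched after that, stood in 3 of 10 and in 3.97% of all. TGACGTGG, a form of the unfolded protein response element, stood in 0 of 10 and in 0.676% of all. Every search covered both strands, and TGATGNAAT contains TGATGNAA. A match here is a match of letters only.

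Of the 10 genes, Herpud1 and Trib3 were the members that passed the test in any comparison. Herpud1 was 1.96-fold lower in bCATca than in WT and 2.28-fold higher in the double mutants than in bCATca. Trib3 was 1.96-fold higher in the double mutants than in bCATca. The transcription factors Atf4, Ddit3 and Xbp1, the chaperone genes Hspa5, Dnajb9, Sdf2l1 and Creld2, and Asns did not pass in any of the 6 contrasts. The test was limma's moderated test on all 8 arrays with p-values adjusted over all 12393 genes, and passing means an adjusted p under 0.05. The bCATca arrays enter both comparisons, so a low value on them moves both.

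**Figure D1:**
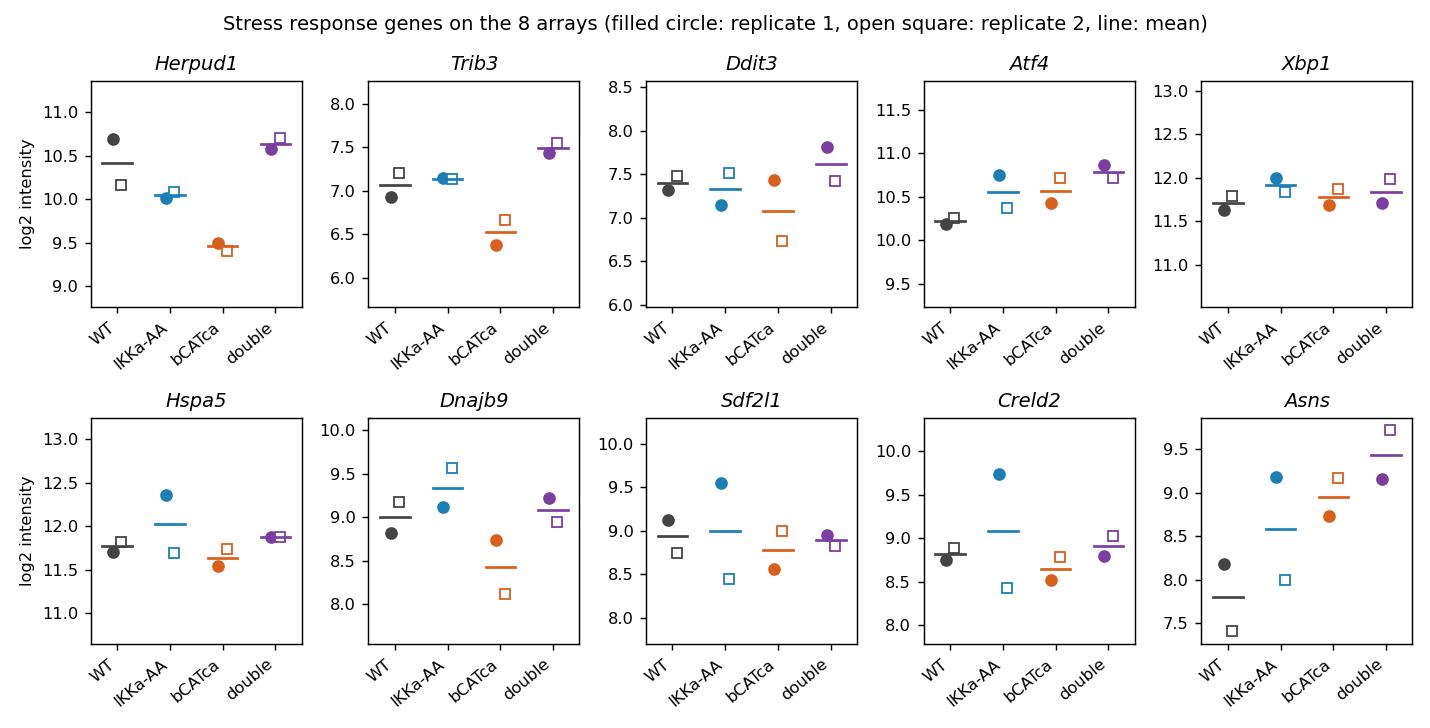
Log2 intensity (vertical axes, each spanning the same number of log2 units) of the 10 listed genes on the 8 arrays, by genotype group (horizontal axis). Filled circles are replicate 1, open squares replicate 2, and lines group means. Herpud1 sits lowest on the bCATca arrays, at 9.50 and 9.41, and back at 10.58 and 10.71 on the double mutant arrays, while Creld2 and Sdf2l1 split the IKKa-AA arrays.

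Herpud1 encodes a membrane protein of the ER that takes part in ER-associated degradation, the route by which misfolded proteins leave the ER for the proteasome. Its log2 levels were 10.69 and 10.16 in WT, 9.50 and 9.41 in bCATca, 10.02 and 10.08 in IKKa-AA and 10.58 and 10.71 in the double mutants, replicate 1 first. Both bCATca arrays lay below all 6 others. WT and the double mutants overlapped, and both IKKa-AA arrays lay below both WT arrays.

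Herpud1 fell by 0.97 in bCATca against WT (SE 0.18, adjusted p = 0.0188 in limma, 95% interval −1.39 to −0.55). In the double mutants it rose by 1.19 against bCATca (SE 0.18, adjusted p = 0.0276, interval 0.77 to 1.61). The double mutants and WT differed by 0.22 (adjusted p = 0.579, interval −0.20 to 0.64), and IKKa-AA and WT by −0.37 (adjusted p = 0.461). With stabilised β-catenin the level moved by −0.97 on the WT background and by 0.59 on the IKKa-AA background. The difference between those 2 changes was 1.56 (SE 0.26), which missed the threshold with an adjusted p of 0.0549 in limma and passed with an intensity trend and robust prior (adjusted p = 0.0342) and without IKKa-AA replicate 2 (0.0408).

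The second Herpud1 probe set, with levels of 10.12 and 9.58 in WT, 9.0 and 8.57 in bCATca and 9.65 and 10.12 in the double mutants, gave −1.06 and 1.10 for the 2 changes. With p-values adjusted over all 22690 probe sets the first passed (0.0382) and the second did not (0.0945). The calls rest on few arrays. The lower level in bCATca missed the threshold without WT replicate 1 (−0.70, adjusted p = 0.0919), bCATca replicate 1 (−1.01, 0.0545) or bCATca replicate 2 (−0.92, 0.113). The higher level in the double mutants missed it without bCATca replicate 1 (adjusted p = 0.0987), bCATca replicate 2 (0.173), double mutant replicate 1 (0.163) or double mutant replicate 2 (0.173), with changes between 1.13 and 1.25 over all fits without 1 array.

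Trib3 encodes a pseudokinase, a kinase-like protein thought to lack normal catalytic activity, whose gene is a known target of ATF4 and CHOP. Its levels were 6.93 and 7.20 in WT, 6.37 and 6.66 in bCATca, 7.14 and 7.13 in IKKa-AA and 7.43 and 7.55 in the double mutants. The bCATca arrays were again the 2 lowest, and the double mutant arrays were the 2 highest.

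Trib3 rose by 0.97 in the double mutants against bCATca (SE 0.16, adjusted p = 0.0345 in limma, interval 0.61 to 1.34). Against WT the bCATca level stood at −0.55 (adjusted p = 0.0659), which missed the threshold, and passed after quantile normalization (−0.73, 0.0349) or cyclic loess (−0.71, 0.0339). The double mutants against WT gave 0.42 (adjusted p = 0.235), and the difference between the 2 changes with stabilised β-catenin was 0.91 (adjusted p = 0.139). A second probe set, of a type that can also bind related transcripts, had levels of 5.73 and 6.27 in WT, 5.04 and 5.24 in bCATca and 6.19 and 6.84 in the double mutants. It gave 1.38 for the double mutants against bCATca (adjusted p = 0.0538 over all probe sets). The call for Trib3 was lost without either WT array (0.0671), bCATca replicate 1 (0.137) or 2 (0.108), or double mutant replicate 1 (0.170) or 2 (0.177), with changes between 0.83 and 1.12.

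Over the 10 genes, 1 was lower and 0 were higher in bCATca than in WT, where 3.55% of all genes were called lower and 5.74% higher. With 10 genes, 1 call is near that background. The median difference of the 10 was −0.16, against 0.01 over all genes. In the double mutants against bCATca 2 of 10 were called higher and 0 lower, where 0.403% of all genes were called higher and 0.807% lower. In that comparison all 10 differences were above 0, with a median of 0.37 against 0.00 over all genes. The 10 genes were chosen with earlier results of these data known, so these counts are a description. The other contrasts called none of the 10 in limma. IKKa-AA against WT called 0.00807% of all genes in either direction, the double mutants against IKKa-AA 0.0565%, the double mutants against WT 1.44%, and the difference between changes (the interaction) 0.0888%. At an unadjusted p under 0.05 those 4 held 0, 1, 3 and 2 of the 10 genes, where 11.7%, 6.93%, 16.9% and 15.7% of all genes passed that level, so these counts are near the background or below it. Without both IKKa-AA arrays, a fit added after seeing the data, bCATca against WT called Herpud1 lower and Asns higher, the double mutants against bCATca again called Herpud1 and Trib3 higher, and the double mutants against WT called Asns higher.

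**Figure D2:**
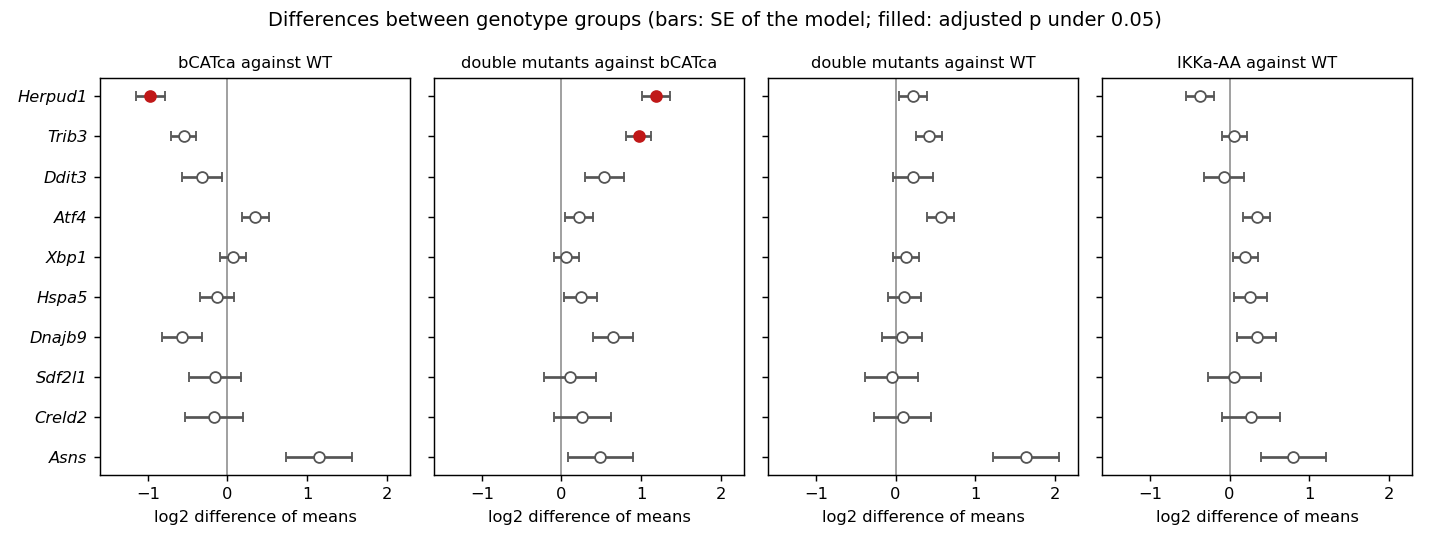
Log2 differences of group means (horizontal axes) for the 10 genes (vertical axis) in 4 comparisons, with bars of 1 SE from the limma model and filled points where the adjusted p was under 0.05. Herpud1 is the filled point at −0.97 for bCATca against WT, and Herpud1 at 1.19 and Trib3 at 0.97 are the filled points for the double mutants against bCATca.

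Other cell markers moved across the same groups, and their part in the Herpud1 and Trib3 values was not tested. Enterocyte markers (8 of 11 measured) were lower in bCATca than in WT for 8 of 8 genes, with a median of −0.54 and 1 past the test, and higher in the double mutants than in bCATca for 8 of 8, with a median of 0.38, 0 past it and 4 at an unadjusted p under 0.05, where 14.8% of all genes passed that level (7 of 8 after quantile normalization or cyclic loess, medians 0.33 and 0.30). Their sums were 64901 and 67810 in WT, 50929 and 38594 in bCATca, 52202 and 59403 in the double mutants and 54074 and 65385 in IKKa-AA. Paneth cell markers (4 of 9 measured) summed to 14433 and 13593 in WT, 17886 and 19737 in bCATca, and 9130 and 9204 in the double mutants. Of these 4, Mmp7 and Pla2g2a were called higher in bCATca than in WT (1.89 and 3.69), and Pla2g2a lower in the double mutants than in bCATca (-1.48). Of the 9 plasma and B cell markers, Sdc1 was called higher in bCATca than in WT (1.10, adjusted p = 0.00338 in limma). Igha (-5.96) and Ms4a1 (-1.14) were called lower in the double mutants than in bCATca. Sdc1 did not follow Igha over the groups. Sdc1 was at 7.89 and 7.87 in WT and at 8.48 and 8.48 in the double mutants, where Igha was at 10.33 and 10.72 and at 5.5 and 5.64. Sdc1 and Pla2g2a in bCATca against WT passed in each of the 8 fits without 1 array. Mmp7 missed the threshold without WT replicate 2 (adjusted p = 0.0807) or bCATca replicate 2, and the 3 calls in the double mutants were each lost without any 1 array of WT or bCATca, or without double mutant replicate 1, with highest values of 0.254 for Igha, 0.173 for Ms4a1 and 0.165 for Pla2g2a. Acinar markers lay above 0 for 7 of 9 in the double mutants against bCATca (median 1.11), with 0 past the test in limma and 4 at an unadjusted p under 0.05. The 2 double mutant arrays differed here, with replicate 1 above replicate 2 for 9 of 9 (median 1.94). T cell markers summed to less in the double mutants than in bCATca, as given above, with 1 of 11 past the test. In that comparison 0.403% of all genes were called higher and 0.807% lower. Among the other marker lists, bCATca against WT called 0 of 9 acinar markers, 2 of 9 goblet cell markers higher, 1 of 10 macrophage and dendritic cell markers higher, 1 of 10 stromal markers higher and 1 lower, 1 of 10 epithelial markers higher, and 1 of 10 enteroendocrine markers higher and 4 lower. Over all genes, bCATca against WT called 5.74% higher and 3.55% lower. In bulk RNA, fewer cells of a type and less RNA per cell cannot be told apart.

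The genes most like Herpud1 over the 8 arrays, by the root mean square difference after each gene was centred on its own mean, were Nr5a2 (0.139), Nr1i2 (0.178) and Inpp5b (0.179), where the spread of Herpud1 itself was 0.471. Nr5a2 encodes the nuclear receptor LRH-1, Nr1i2 the pregnane X receptor and Inpp5b an inositol polyphosphate 5-phosphatase. Nr5a2 was at 7.28 and 6.92 in WT, 6.35 and 6.40 in bCATca, and 7.35 and 7.27 in the double mutants. For Trib3, with a spread of 0.362, the closest were Tex12 (0.117), Epx (0.126) and Bach1 (0.131). Bach1, a heme-binding repressor of transcription, was at 9.03 and 9.49 in WT, 8.47 and 8.62 in bCATca, and 9.37 and 9.36 in the double mutants. Epx, at 2.75 to 3.77, lay near or below the lower quartile of the arrays, and Tex12, at 3.88 to 4.88, not far above it, so their likeness is among dim values. Likeness over 8 arrays of 4 genotypes is a description with no test.

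**Figure D3:**
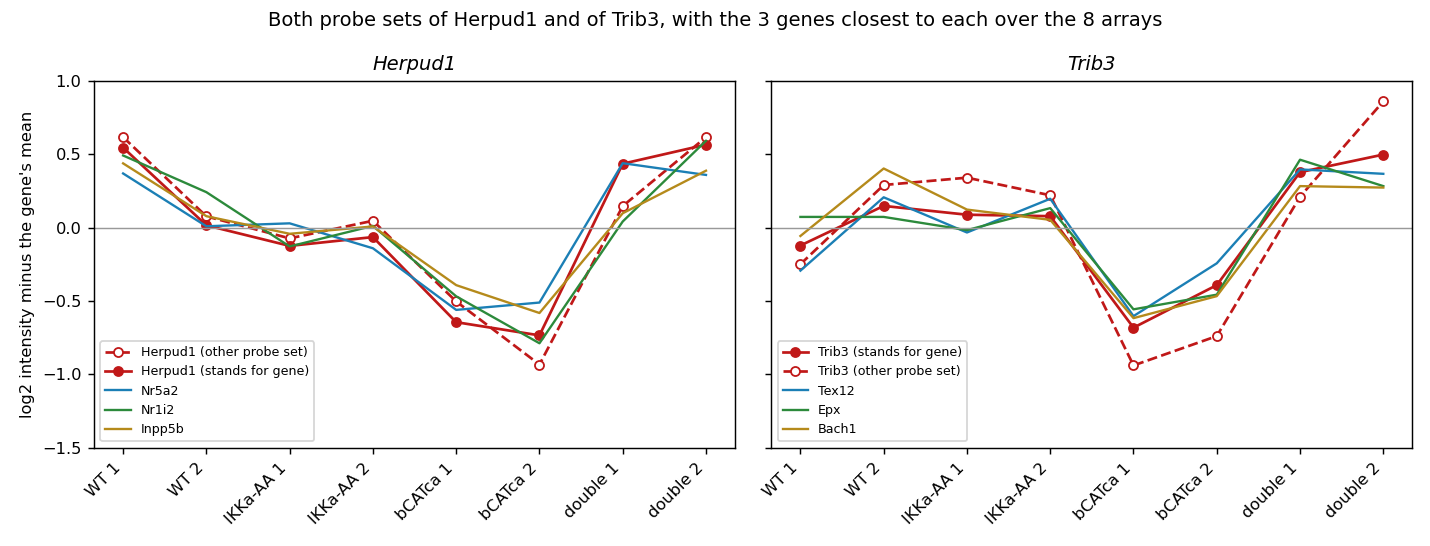
Log2 intensity minus the gene's own mean (vertical axis) on the 8 arrays (horizontal axis) for both probe sets of Herpud1 (left) and Trib3 (right), in red, and for the 3 genes closest to each. Lines join arrays of different samples only to guide the eye, and both probe sets of each gene are lowest on the 2 bCATca arrays.

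Atf4 encodes the transcription factor at the centre of the integrated stress response. Its levels were 10.19 and 10.25 in WT, 10.43 and 10.71 in bCATca, 10.75 and 10.37 in IKKa-AA and 10.87 and 10.71 in the double mutants. WT was lowest, with no overlap with any other group, and how many of all genes share that order is not given here. The differences from WT were 0.34 in IKKa-AA (adjusted p = 0.475), 0.35 in bCATca (0.214) and 0.57 in the double mutants (0.149, interval 0.17 to 0.97), and none passed. Of its other probe sets, one gave 0.20 for bCATca against WT and 0.72 for the double mutants against WT. That probe set is of a type that can also bind related transcripts. Another lay near the lower quartile, at 3.37 to 4.05.

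Ddit3 encodes CHOP, a factor known for its part in cell death after long stress. Its levels were 7.32 and 7.48 in WT, 7.43 and 6.73 in bCATca, 7.15 and 7.51 in IKKa-AA and 7.81 and 7.42 in the double mutants. The bCATca arrays differed by more than the group means did, and every group overlapped another. The double mutants against bCATca gave 0.54 (adjusted p = 0.372, interval −0.04 to 1.12).

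Xbp1, whose mRNA IRE1 splices, was at 11.63 and 11.79 in WT, 11.69 and 11.87 in bCATca, 11.99 and 11.83 in IKKa-AA and 11.71 and 11.98 in the double mutants. No comparison exceeded 0.20 in size, and the interval for bCATca against WT ran from −0.29 to 0.43. One of its 4 probe sets went against the rest, with −0.43 for IKKa-AA, −0.38 for bCATca and −0.33 for the double mutants against WT, none past the test. The array does not separate spliced from unspliced Xbp1.

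Asns encodes asparagine synthetase, a target of ATF4 in amino acid shortage. Its levels were 8.18 and 7.41 in WT, 8.73 and 9.17 in bCATca, 9.18 and 8.0 in IKKa-AA and 9.16 and 9.72 in the double mutants. Both bCATca and both double mutant arrays lay above both WT arrays, while the IKKa-AA arrays fell on either side of WT replicate 1. How common that order is over all genes is not given here. Asns was 2.22-fold above WT in bCATca (1.15, SE 0.41, adjusted p = 0.104) and 3.11-fold above it in the double mutants (1.64, SE 0.41, 0.0959). Neither passed the test in limma on all 8 arrays. Without both IKKa-AA arrays, the pair of Asns values farthest apart, the adjusted p values were 0.0320 and 0.0140. The second probe set, of a type that can also bind related transcripts, gave 1.41 and 1.83 (0.0726 and 0.0888 over all probe sets).

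Hspa5 encodes BiP, the main Hsp70 chaperone of the ER. Its levels were 11.71 and 11.82 in WT, 11.54 and 11.74 in bCATca, 12.36 and 11.70 in IKKa-AA and 11.88 and 11.88 in the double mutants. The highest value was IKKa-AA replicate 1, and the other 7 arrays lay between 11.54 and 11.88. For bCATca against WT the difference was −0.13 (adjusted p = 0.722), with an interval of −0.61 to 0.36.

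Dnajb9 encodes ERdj4, a co-chaperone of BiP. It was at 8.82 and 9.18 in WT, 8.74 and 8.12 in bCATca, 9.12 and 9.57 in IKKa-AA and 9.22 and 8.95 in the double mutants. As for Herpud1 and Trib3, the bCATca arrays were the 2 lowest, and the share of all genes with that order is not given here. Here the differences of −0.57 against WT (adjusted p = 0.172) and 0.65 in the double mutants against bCATca (0.279) did not pass.

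Sdf2l1 and Creld2 encode small ER proteins, Sdf2l1 a partner of the ERdj3 chaperone and Creld2 a protein disulfide isomerase-like protein. Sdf2l1 was at 9.13 and 8.75 in WT, 8.56 and 9.0 in bCATca, 9.55 and 8.45 in IKKa-AA and 8.95 and 8.82 in the double mutants. Creld2 was at 8.75 and 8.89 in WT, 8.52 and 8.78 in bCATca, 9.74 and 8.43 in IKKa-AA and 8.79 and 9.02 in the double mutants. For both genes the highest and the lowest array were the 2 IKKa-AA replicates. Differences between group means did not exceed 0.27 in size, and their intervals are wide, at −0.92 to 0.60 for Sdf2l1 and −0.99 to 0.65 for Creld2 in bCATca against WT.

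That split of the IKKa-AA arrays reached several of the 10 genes. Replicate 1 exceeded replicate 2 by 1.31 for Creld2, 1.18 for Asns, 1.10 for Sdf2l1, 0.66 for Hspa5 and 0.38 for Atf4. Only 0.307%, 0.452% and 0.557% of all genes had a larger excess than Creld2, Asns and Sdf2l1, and 3.26% a larger one than Hspa5. Herpud1 (−0.05) and Trib3 (0.01) were level between the 2 arrays, and Ddit3 (−0.36) and Dnajb9 (−0.45) were lower in replicate 1. Of ER chaperone and folding genes, 21 of 23 were higher in replicate 1 (median 0.44), as were 18 of 18 aminoacyl-tRNA synthetase genes (0.58) and 11 of 13 cytosolic heat shock genes (0.60), against a median of −0.01 over all genes. In ER-associated degradation the count was 10 of 17 (0.05). Replicates of other groups split too, given here for heat shock genes, synthetases and chaperone genes in that order. In WT, replicate 1 was higher for 12 of 13, 15 of 18 and 13 of 23 (medians 0.25, 0.23 and 0.01). In bCATca it was higher for 6 of 13, 2 of 18 and 4 of 23 (−0.14, −0.19 and −0.24). In the double mutants it was higher for 5 of 13, 4 of 18 and 9 of 23 (−0.02, −0.21 and −0.04).

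The same 2 arrays differed in other cells' markers. T cell markers summed to 2695 in replicate 1 and 9736 in replicate 2, plasma and B cell markers to 709 and 4217, Paneth cell markers to 7447 and 15447, and epithelial markers to 39007 and 35545. Their part in the stress gene values was not tested. Over all genes the difference between replicates had an SD of 0.431 in IKKa-AA, where WT had 0.292, bCATca 0.336 and the double mutants 0.304. limma shares 1 spread per gene over the 4 groups. In IKKa-AA against WT 8 of the 10 differences lay above 0, with a median of 0.23, and 0 were called.

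**Figure D4:**
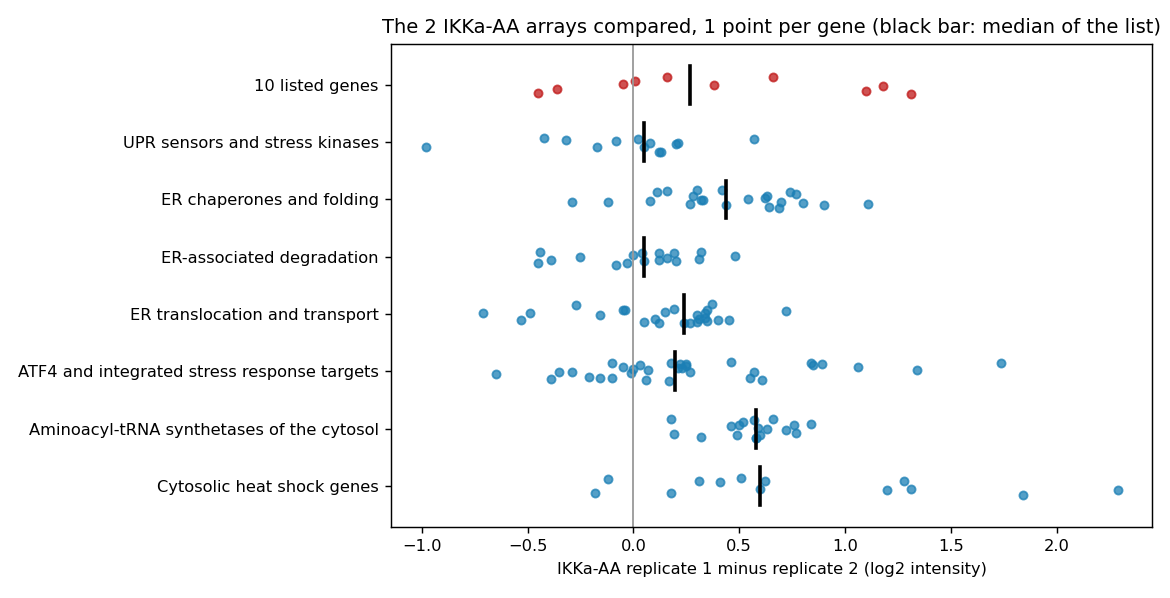
Log2 intensity of IKKa-AA replicate 1 minus replicate 2 (horizontal axis), 1 point per gene, for the 10 listed genes and 7 related lists (vertical axis), with a black bar at each median. The medians are 0.44 for ER chaperones, 0.58 for synthetases and 0.60 for cytosolic heat shock genes, and 0.05 for ER-associated degradation.

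Of the genes around these 10, those of the stress sensors and of the ATF4 branch held calls in both directions between them. In bCATca against WT, 2 of 13 measured sensor genes (14 listed) were lower and 0 higher. Over all genes that comparison called 3.55% lower and 5.74% higher, which is the background for each list here. Ern1, encoding a form of the sensor IRE1, fell by 1.05 (adjusted p = 0.00900 in limma), from 6.24 and 5.89 in WT to 5.10 and 4.94 in bCATca. It was at 5.57 and 5.45 in IKKa-AA and at 5.77 and 5.65 in the double mutants. Its difference between the double mutants and bCATca was 0.69 (adjusted p = 0.0887 in limma). Ern2, which encodes another form of IRE1, went the other way, from 5.77 and 5.81 in WT to 6.25 and 6.28 in bCATca, and did not pass. Ern2 was at 6.17 and 6.09 in IKKa-AA and at 6.06 and 5.81 in the double mutants. Creb3l3, an ER-bound transcription factor of liver and intestine, fell by 0.77 (0.0466). Among 23 ER chaperone and folding genes 2 were higher: Fkbp11, a prolyl isomerase gene known from secretory cells, rose by 1.67 (0.0267) and Sil1, encoding a nucleotide exchange factor of BiP, by 0.78 (0.0199). The median of the 23 was 0.14.

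No gene of ER-associated degradation passed of 17 measured (19 listed), with a median of 0.05 and 2 at an unadjusted p under 0.05, a level that 29.4% of all genes passed in that comparison. In ER translocation and transport 1 of 25 measured (28 listed) was lower, where 3.55% of all genes were. It was Sar1b, a GTPase of vesicle budding that serves chylomicron export, which fell by 0.73 (adjusted p = 0.0347). Among 13 measured cytosolic heat shock genes (14 listed) 0 passed in limma, with 2 at an unadjusted p under 0.05, against the same 29.4% of all genes.

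Targets of ATF4 and the integrated stress response went both ways in bCATca against WT, with 3 of 32 measured (33 listed) higher and 3 lower, and a median of 0.30. Of all genes, 5.74% were called higher and 3.55% lower. Nupr1, a stress-induced chromatin protein gene, rose by 1.34 (adjusted p = 0.00978), Phgdh, the first enzyme of serine synthesis, by 0.94 (0.00671) and Pck2, mitochondrial PEPCK, by 0.83 (0.0363). Cth, encoding cystathionine gamma-lyase, fell by 1.26 (0.00374), Slc3a2, the heavy chain of amino acid exchangers, by 0.75 (0.0327) and Sesn2, a leucine sensor gene, by 0.69 (0.0466). Cth was at 9.59 and 9.73 in WT, 8.49 and 8.32 in bCATca, and 9.24 and 9.55 in the double mutants. It rose by 0.99 in the double mutants against bCATca (0.0312), which was the single call of the 7 lists in that comparison. There 0.403% of all genes were called higher and 0.807% lower.

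The cytosolic aminoacyl-tRNA synthetases, enzymes that load tRNA and many of which ATF4 is known to act on, lay above 0 for 18 of 18 measured (20 listed) in bCATca against WT, with a median of 0.56 and 3 past the test (17 of 18 above 0 with the mean of each gene's probe sets). That comparison called 5.74% of all genes higher. Vars rose by 1.18 (adjusted p = 0.0197), Gars by 1.04 (0.0358) and Wars by 0.94 (0.0302). Against WT the double mutants had a median of 0.62, with Aars higher by 1.02 (0.0487), and Nupr1 higher by 1.17 (0.0434) among ATF4 targets. There 1.44% of all genes were called in either direction. Against bCATca the median of the synthetases was −0.03, with 8 of 18 above 0. The synthetases lay above 0 for 18 of 18 in IKKa-AA against WT too (median 0.34, 0 past the test), and in the double mutants against WT. A level above WT was thus not particular to stabilised β-catenin. In the interaction their median was -0.33, with 1 of 18 above 0. The share of all genes above 0 is not given here. IKKa-AA against WT called 0 genes in all 7 lists in limma. At an unadjusted p under 0.05 it held 1 to 8 genes per list, where 11.7% of all genes passed that level. The counts ran from 1 of 17 in ER-associated degradation to 8 of 32 among ATF4 targets. The largest share was that of the sensor genes, with 5 of 13.

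**Figure D5:**
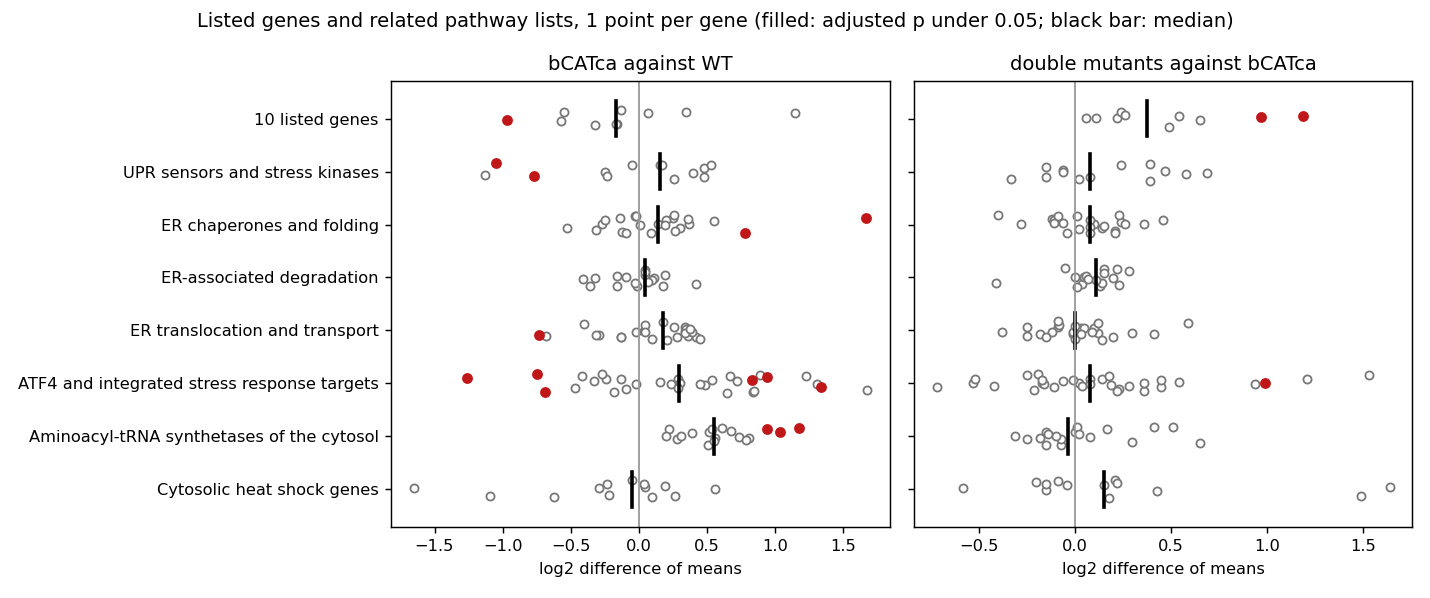
Log2 differences of group means (horizontal axes), 1 point per gene, for the 10 listed genes and 7 related lists (vertical axis) in bCATca against WT (left) and the double mutants against bCATca (right), filled where the adjusted p was under 0.05 and with a black bar at each median. In bCATca against WT all 18 synthetases lie above 0, with a median of 0.56, and in the double mutants against bCATca Herpud1 (1.19), Trib3 (0.97) and Cth (0.99) are the filled points.

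Of the 17 calls of pathway list genes over all comparisons, that of Cth in bCATca against WT was the 1 that passed in each of the 8 fits without 1 array (highest adjusted p 0.0420, without WT replicate 2). Ern1 missed the threshold without WT replicate 1 or bCATca replicate 2 (highest 0.0734, without the latter), Phgdh without WT replicate 2 (0.0653) or bCATca replicate 2, and Nupr1 without either WT array or bCATca replicate 2 (0.0801). The call of Cth in the double mutants against bCATca was lost without any 1 array of WT, bCATca or the double mutants (highest 0.191, without bCATca replicate 2), and that of Aars likewise (0.265, without WT replicate 2). Without both IKKa-AA arrays the counts in bCATca against WT were 8 higher and 3 lower of 32 ATF4 targets, 9 higher of 18 synthetases and 3 lower of 13 sensors, where all genes gave 1133 higher and 752 lower of 12393. In the double mutants against bCATca 3 of 32 ATF4 targets then passed, Chac1, Atf3 and Cth, all higher, where all genes gave 124 higher and 271 lower. Against WT, 6 of 32 ATF4 targets, 4 of 18 synthetases and 2 of 23 ER chaperone genes were then higher in the double mutants, where all genes gave 334 higher and 327 lower.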

How the data were processed

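RMA, which corrects background, equalises array distributions and summarises probes, was run with the affy software, per the submitters' processing notes; versions are not given in the sources used here. The deposited values were linear intensities of 22690 probe sets, from 3.01 to 14653.78, and log2 was taken of each. The planned test allowed for log2 or linear values. Of the probe sets, 20380 had 1 symbol, 691 several, 1555 none and 64 were controls. The probe set with the highest mean stood for a gene, which left 12393 genes. limma 3.58.1 in R 4.3.3 fitted 1 mean per group to all 8 arrays (eBayes defaults, residual degrees of freedom 4, prior 4.28), with Benjamini-Hochberg adjustment over all genes and a threshold of 0.05. The steps were tested on simulated data whose changes were larger than those called here for Herpud1 and Trib3. That test does not show how well changes of their size are found.

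Groups came from the sample titles. The 10 genes, the 7 pathway lists and the 10 cell marker lists were chosen with earlier results of these data known. All 10 genes were named, and up to 3 genes with the largest change past the test per list and direction. Alternatives were quantile and cyclic loess normalization, the mean of a gene's probe sets, all probe sets, a trend and robust prior, a filter on dim genes (mean log2 of at least 5), the replicate number as a block, and each array left out. The fit without both IKKa-AA arrays and the search for TGATGNAA were added after seeing the data. Older symbols of the synthetases were matched by name. The IKKα gene itself was not analysed here.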

Additional observations from a re-analysis of the deposited data

Results flagged for a closer look

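The change with stabilised β-catenin went opposite ways on the 2 IKKα backgrounds for 2 of the 10 genes, with every array of the group with stabilised β-catenin below its control group on one background and above it on the other. Over all 12393 genes, 604 (4.87%) separated in that way, lower on the WT background and higher on the IKKa-AA background, and 944 (7.62%) in opposite ways of either kind. For Herpud1 the change was -0.97 on the WT background and 0.59 on the IKKa-AA background, a difference of 1.56, which missed the threshold in limma (adjusted p = 0.0549). For Trib3 the changes were -0.55 and 0.36, a difference of 0.91 (adjusted p = 0.139 in limma). The 10 genes were chosen with earlier results of these data known, so their count here is a description. Groups of 2 arrays are too small for the search for single arrays that stand apart.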

How the results depend on the processing

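Of 930 alternatives to the 60 changes of the 10 genes, 853 kept their direction and their side of the threshold, 15 kept the direction but no longer passed, 10 newly passed and 52 turned their direction. Most of the 60 changes did not pass in the main fit, so this tally says little about how stable the calls are. All 15 losses fell on the calls of Herpud1 and Trib3. Members called in bCATca against WT numbered 1, and 2 after quantile normalization or cyclic loess (Trib3 added) and 2 without both IKKa-AA arrays (Asns added), with 0 to 2 in the fits without 1 array. In the double mutants against bCATca the count was 2, and 0 with the replicate block (Herpud1 adjusted p = 0.0562, Trib3 0.0510), with 0 to 2 without 1 array. In the double mutants against WT it was 0, and 1 without both IKKa-AA arrays (Asns), with 0 to 1 without 1 array. The interaction gave 0, and 1 with the trend and robust prior (Herpud1), with 0 to 1 without 1 array. Replicate numbers did not pair the arrays: correlations of same-numbered deviations ran from -0.448 to 0.15, so the block is given here only.

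The changes that turned, all small in the main values, were these. With the mean of all probe sets, Xbp1 in bCATca against WT came to -0.05, and in the interaction Atf4 to 0.07 and Xbp1 to 0.03. With quantile normalization Hspa5 in bCATca against WT came to 0.01, Trib3 in IKKa-AA against WT to -0.03 and Creld2 in the interaction to 0.05. With cyclic loess Trib3 and Sdf2l1 in IKKa-AA against WT came to -0.02 and -0.03, Dnajb9 and Creld2 in the double mutants against WT to -0.01 each, and Creld2 in the interaction to 0.11. Without 1 array the ranges of changes that turned were Ddit3 -0.67 to 0.03, Xbp1 -0.02 to 0.16 and Sdf2l1 -0.38 to 0.07 in bCATca against WT. In IKKa-AA against WT they were Trib3 -0.07 to 0.20, Ddit3 -0.25 to 0.11, Hspa5 -0.07 to 0.59, Sdf2l1 -0.49 to 0.61 and Creld2 -0.39 to 0.92. In the double mutants they were Xbp1 -0.07 to 0.19 and Sdf2l1 -0.12 to 0.33 in the double mutants against bCATca, Xbp1 -0.20 to 0.06, Hspa5 -0.48 to 0.18, Sdf2l1 -0.67 to 0.43 and Creld2 -0.83 to 0.48 in the double mutants against IKKa-AA, and Herpud1 -0.05 to 0.49, Dnajb9 -0.10 to 0.26, Sdf2l1 -0.24 to 0.14 and Creld2 -0.03 to 0.20 in the double mutants against WT. For the interaction they were Atf4 -0.32 to 0.06, Hspa5 -0.35 to 0.31, Sdf2l1 -0.51 to 0.59, Creld2 -0.66 to 0.65 and Asns -0.90 to 0.28. The cause of these turns was not tested.

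Over all genes, the calls in bCATca against WT were 711 higher and 440 lower, 551 and 518 after quantile normalization, and 560 and 520 after cyclic loess. The higher share of calls in the double mutants against IKKa-AA went from 85.7% to 75% with loess, and in the interaction from 45.5% to 58.3% with quantile normalization. With the block, the counts of genes called were 701 for bCATca against WT (1151 without it), 72 for the double mutants against bCATca (150), 71 for the double mutants against WT (179), 0 for the double mutants against IKKa-AA (7) and 6 for the interaction (11). Without 1 array they ran from 223 to 1885, 11 to 395, 7 to 661, 0 to 159 and 0 to 234 in that order, and from 0 to 325 for IKKa-AA against WT (1). The filter on dim genes gave 92 for the double mutants against bCATca, 0 for IKKa-AA against WT, 0 for the double mutants against IKKa-AA and 6 for the interaction. All probe sets gave 7 for IKKa-AA against WT, 12 for the double mutants against IKKa-AA and 60 for the interaction, and the trend and robust prior gave 4 for IKKa-AA against WT and 73 for the interaction. For the double mutants against IKKa-AA, quantile normalization gave 0, loess 4 and the mean of probe sets 1. With 1 array left out, the lone array of its group is assumed to vary like the other groups. With 2 arrays a group, their number limits the precision, and missed thresholds do not show that levels were alike.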
